A study of Mus musculus with 52 samples.

Results

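The genes described here are 51 components of the core trafficking machinery of the Golgi apparatus: the subunits of the COPI and COPII vesicle coats, the Arf GTPases, the golgins, the conserved oligomeric Golgi (COG) tethering complex, p115 and its GRASP partners, the Bicaudal adaptors and the Golgi SNAREs. They were chosen by name, as a set of gene symbols and without a filter on measured values, though with earlier results of these data known. Of the 24421 symbols in the count tables, 51 are members. RNA of IMCD3 cells, an immortalised epithelial line from the inner medullary collecting duct of the mouse kidney, was sequenced in 52 libraries. They form 13 groups, each a labelled clone in a given state, with 4 technical replicates per group. Because the paper describes 4 control and 3 mutant clones, the same clone may be present in both states. Below, the 13 groups are called clones. The study asked how homozygous changes in Wdr34 and Wdr60, the intermediate chains of the cilium motor dynein-2, alter expression, and it followed up Golgi transport in the mutant cells.

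In ciliated cells there were 3 mutants, namely a Wdr60 clone with p.Ala911Val and the Wdr34 clones labelled 1 and 3. Their 4 controls were named A4, D8, G7 and H12. In non-ciliated cells there were 2 mutants, a Wdr34 clone with p.Arg183Trp and a Wdr60 clone with p.Ala911Val, and 4 controls, named AB, 1, 2 and 3. All clones, controls included, descend from a Cilia-APEX line of IMCD3, passed through transfection with the base editor BE4-Gam and were grown from single sorted cells. The controls received a guide vector without a target. Each genotype is 1 clone in each state, apart from the ciliated Wdr34 clones, whose alleles are not given in the labels, so that genotype and clone cannot be told apart. The Wdr60 clone also carries an unintended heterozygous synonymous change. The p.Gly394Ser clone, obtained after the non-ciliated cells were sequenced, carries an unintended heterozygous missense change. The labels do not say which ciliated Wdr34 clone this is. In expression by chromosome, given below, clone 1 was alike to the non-ciliated Wdr34 clone (correlation 0.831). Clone 3 was alike to no non-ciliated clone (at most 0.263). By this likeness clone 1 would be p.Arg183Trp and clone 3 p.Gly394Ser, but the alleles themselves were not tested. Cilia were induced by serum starvation per the study's methods, whereas the labels give serum-containing medium for every library. The states were also sequenced at different times, so that state, serum and time of sequencing cannot be told apart.

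Library totals ran from 14816218 to 28084979 counts, of which the members held between 0.558% and 0.645%, and no 2 replicate libraries were identical. Of 7 collecting duct epithelial markers, 5 were at 1 CPM (counts-per-million) or more in every clone, with Aqp2 at or near 0. Ciliated control G7 and non-ciliated control 2 stood low, at a summed 431 and 437 CPM, where the next lowest clone, ciliated Wdr34 clone 3, had 936 CPM. Krt8, Krt18, Cdh1 and Epcam were lowest in these 2 clones, whereas Pax2 of the same list was highest in them, at 310 and 277 CPM against 80.6–182 CPM elsewhere. The 4 endothelial markers summed to at most 0.186 CPM, and the 5 fibroblast markers to at most 5.57 CPM outside Wdr34 clone 3, which had 31.2 CPM. Most of that was Dcn (29.2 CPM). Col1a1 of the same list was at 1.17 CPM there and at 0.343–5.34 CPM in the other clones. Of the 4 leukocyte markers, Cd3e was at 0 in every clone. Csf1r, a macrophage receptor, lay at 16–49.2 CPM in non-ciliated and 169–297 CPM in ciliated clones. The other markers of that list were not higher in ciliated clones. Ptprc lay at 0.0499–0.902 CPM in non-ciliated and 0.0267–0.443 CPM in ciliated clones, and Cd68 at 2.02–4.55 and 0.769–3.86 CPM. The part of these markers in the results was not tested. In 6 libraries, 4 of them ciliated, the median gene lay 0.2 or more (log2) from the rest of the clone, against a median of 0.09 in the other libraries. They were non-ciliated control AB replicate 1, non-ciliated Wdr60 replicate 1, ciliated Wdr60 replicates 2 and 3, G7 replicate 4 and A4 replicate 1, and the calls below are given with and without them.

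Proteins leave the endoplasmic reticulum in COPII vesicles, whose inner layer of Sec23 and Sec24 is recruited by the GTPase Sar1 and whose outer cage is built of Sec13 and Sec31. COPI vesicles, a heptameric coat recruited by Arf GTPases, carry material back from the Golgi and between its cisternae. Golgins are long coiled-coil proteins that capture vesicles at a distance, the COG complex tethers vesicles within the stack, and SNAREs then fuse them. Dynein carries Golgi membranes towards the cell centre, and Bicaudal proteins link cargo to that motor.

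Several of these genes share a short element at their start site that is known from stress responses of the Golgi and the endoplasmic reticulum. A promoter window of 250 bases before to 50 bases after the start was found in the RefSeq promoter table (GRCm38.p6) for 47 of the 51 members, and none for Arcn1, Golga4, Golgb1 and Golga7. The Golgi stress response element ACGTGGC, searched on both strands, was present in 14 of 47 members (29.8%), against 427 of 9108 genes tested for expression (4.69%) and 798 of all 27025 genes in the table (2.95%). The core of the unfolded protein response element, TGACGTGG, which overlaps it in ACGTGG, was present in 6 of 47 members (12.8%), against 1.11% of tested genes and 0.714% of all genes. At least 1 of the 2 motifs was found in 16 members (34%). By comparison, the cAMP response element TGACGTCA was found in 3.57% of 56 member windows and 1.79% of 32851 windows, and the longer ER stress response element in 0 of 56 windows and 0.119% of all. A match is a description of the letters and not a binding site. The 60 bases before and 20 after the start are printed here for members of both coats and for Uso1 (p115), 5′ to 3′ on the gene's strand, because most members that carry the letters are coat genes; capitals mark a motif on either strand.
Sec24d, chr3:123267436-123267515 (+ strand): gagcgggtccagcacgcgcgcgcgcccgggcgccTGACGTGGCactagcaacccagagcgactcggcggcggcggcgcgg
Sec23a, chr12:59011998-59012077 (− strand): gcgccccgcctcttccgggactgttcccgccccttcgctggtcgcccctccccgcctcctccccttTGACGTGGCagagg
Sec13, chr6:113740662-113740741 (− strand): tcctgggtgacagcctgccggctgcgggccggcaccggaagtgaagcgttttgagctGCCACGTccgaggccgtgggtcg
Sec31a, chr5:100416215-100416294 (− strand): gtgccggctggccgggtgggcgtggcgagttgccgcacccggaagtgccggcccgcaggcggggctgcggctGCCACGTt
Copg1, chr6:87887880-87887959 (+ strand): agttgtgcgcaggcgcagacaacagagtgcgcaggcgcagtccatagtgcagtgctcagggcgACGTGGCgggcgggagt
Copb1, chr7:114254661-114254740 (− strand): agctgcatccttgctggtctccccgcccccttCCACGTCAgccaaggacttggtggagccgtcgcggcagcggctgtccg
Copb2, chr9:98563671-98563750 (+ strand): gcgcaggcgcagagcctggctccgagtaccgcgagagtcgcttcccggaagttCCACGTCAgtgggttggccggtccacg
Uso1, chr5:92137878-92137957 (+ strand): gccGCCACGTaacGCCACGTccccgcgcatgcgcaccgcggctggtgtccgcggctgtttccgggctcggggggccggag

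In Sec24d and Sec23a both motifs are present as 1 continuous run, TGACGTGGC. Uso1 carries 2 copies of the Golgi element on the reverse strand, and Copb1 and Copb2 carry the unfolded protein response core alone.

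All 51 members were expressed above the low-count filter in every comparison. Levels between genes are compared here per length, as CPM per kilobase of exon averaged over the 13 clones. Arf1, the GTPase that recruits COPI, was highest at 279 CPM per kb, followed by Arf5 at 113, with Arf4 at 82.5 and Arf3 at 74.1. Lowest was the dynein adaptor Bicd1 at 2.34 CPM per kb, against 13.4 for its paralog Bicd2. Clone ranges did not overlap for Bicd1 (1.71–3.41) and Bicd2 (10.2–16.7) or for Sec23a (17.6–25.6) and Sec23b (39.2–62.5). Of the COPI gamma subunits, Copg1 averaged 48 (30.9–65.7) and Copg2 24.5 (18–31.1) CPM per kb. Of the zeta subunits, Copz1 averaged 61 (43.6–75.3) and Copz2 6.38 CPM per kb, and Copz2 spread from 1.55 to 24.3 over clones. The GTPases Sar1a (77.1) and Sar1b (55.5) were closer. Among the cargo-binding Sec24 subunits the averages were 7.63 for Sec24a, 29.6 for Sec24b, 32.1 for Sec24c and 12 CPM per kb for Sec24d, and the clone ranges of Sec24b (24–38.1) and Sec24c (26.7–38.7) overlapped.

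Members varied less among clones, in the median, than genes at large. The standard deviation (SD) of log2 CPM between clones had a median of 0.169 over the 51 members in ciliated and 0.173 in non-ciliated cells, against 0.293 and 0.258 over all genes tested. Between the libraries of a clone the medians were 0.113 and 0.11 for members and 0.17 and 0.16 for all genes. The heat map of all members by clone shows where the members of 1 clone stood apart from its state.

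**Figure D1:**
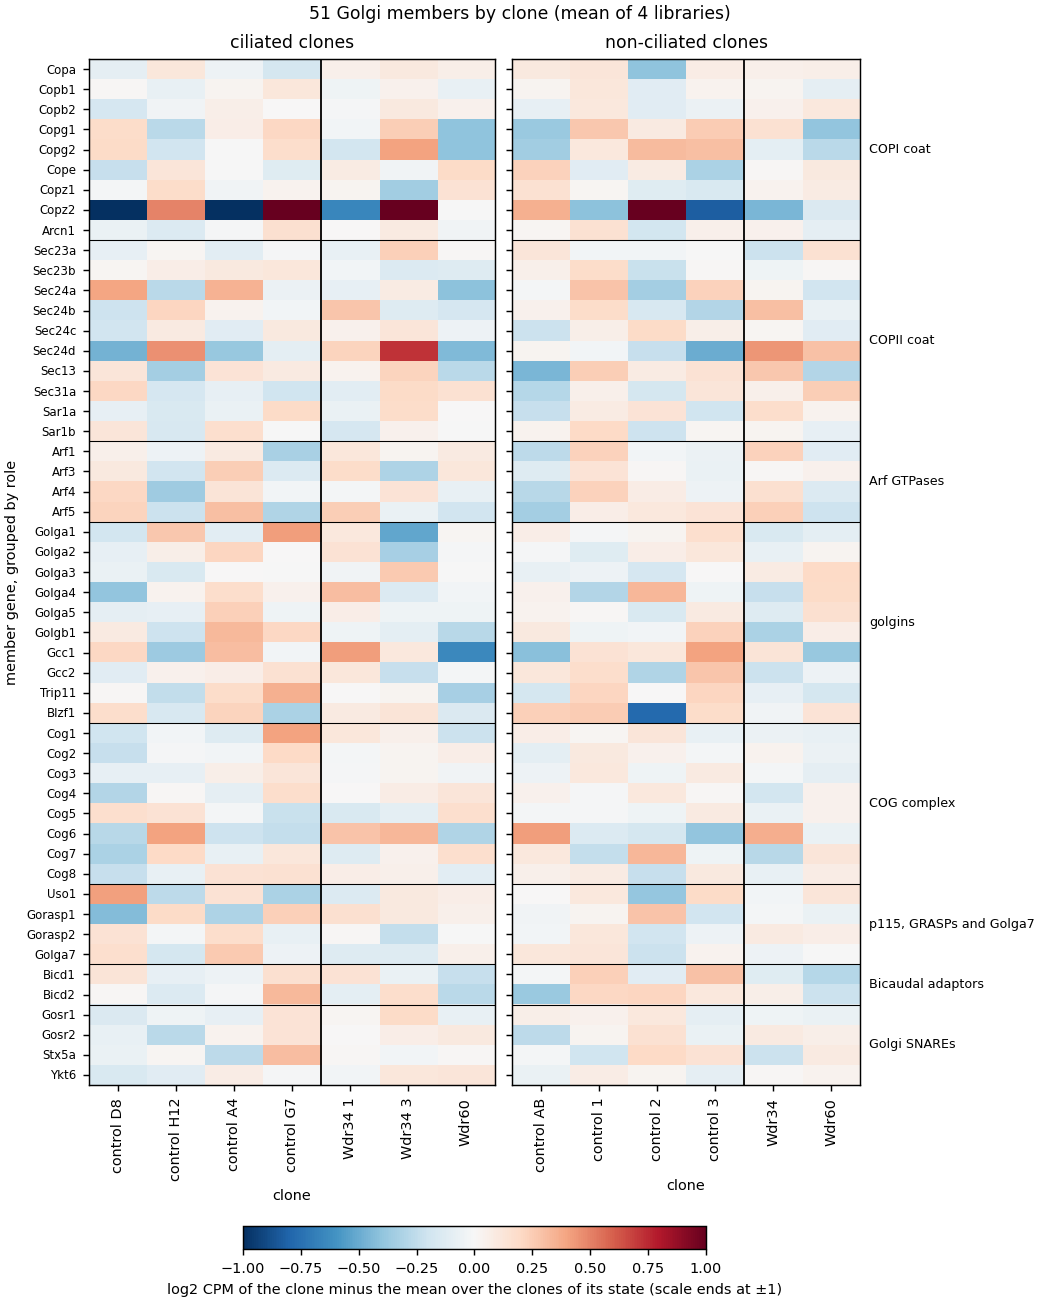
Each of the 51 members (one per line, grouped by role) in each of the 13 clones (columns), coloured by the clone's mean log2 CPM minus the mean of its state, on a scale that ends at −1 and 1. Most cells are pale, Copz2 varies most, and blocks of members differ together in single clones, such as Copg1, Sec13, Arf5 and Gcc1 in non-ciliated control AB.

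In ciliated cells, 1 of the 51 members was called between mutants and controls. Sec23b, the GTPase-activating inner subunit of the COPII coat, was called lower in mutants, and no member was called higher. Genes were tested with edgeR's quasi-likelihood test on libraries, with p-values adjusted by Benjamini-Hochberg (BH) over all genes tested, and called at an adjusted p under 0.05. Of all 11950 genes, 1.58% were called higher and 1.59% lower, so 1 of 51 members was near the background. With an added limit of 1 on the size of the log2 fold change, 0.644% of all genes and no member were called. At an unadjusted p under 0.05 there were 6 members (11.8%), against 19.2% of all genes.

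Sec23b (chr2:144556229-144590753, GRCm38.p6) had mean levels of 121.9 CPM in D8, 126.1 in H12, 128.6 in A4 and 130.7 in G7. In mutants it had 117.7 CPM in Wdr34 clone 1, 109 in Wdr34 clone 3 and 110.6 in Wdr60. All 3 mutant clones lay below all 4 controls, a separation that 0.812% of all genes showed in this direction and 1.11% in the other, where no member was found. The means were 126.8 ± 3.79 CPM (SD, n = 4 clones) in controls and 112.5 ± 4.63 CPM (n = 3) in mutants, a log2 fold change of −0.18 (SE 0.05, edgeR adjusted p = 0.0445). Over clone means the exact 2-sided permutation test gave p = 0.0286, the smallest that 3 against 4 clones allow, without adjustment over the members. The call was lost without D8 (adjusted p = 0.0571), without A4 (adjusted p = 0.0745) and without Wdr34 clone 3 (adjusted p = 0.117), and was kept without the libraries that stood apart (−0.19, adjusted p = 0.0276). With the replicate number as a block the adjusted p was 0.0550. The call was also lost with any 1 replicate number left out, and with the chromosome offset given below. In non-ciliated cells the difference in Sec23b was −0.03 (adjusted p = 0.838).

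The remaining 50 members were not called in ciliated mutants: all 9 COPI subunits, 9 of 10 COPII genes, 4 Arf GTPases, 10 golgins, 8 COG subunits, p115, the 2 GRASPs and Golga7, 2 Bicaudal adaptors and 4 SNAREs. The median log2 fold change of the members was −0.0142, against −0.0125 for all genes, and 22 of 51 (43.1%) were positive, against 47.4% of all genes. The median size of the change was 0.0816 for members and 0.131 for all genes. For 48 of 51 members the 95% interval of the log2 fold change lay within −0.5 and 0.5, while those of Copz2, Sec24a and Sec24d were wider or reached further. Leaving out H12 gave 3 members higher and 3 lower, with 5.63% and 7.24% of all genes, and leaving out G7 gave 2 higher and 2 lower, with 7.97% and 8.82% of all genes. The intervals count the libraries of a clone as independent samples, so they are too narrow as intervals over clones.

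In non-ciliated cells, 4 members were called, 2 higher and 2 lower. Sec24d, a cargo-binding subunit of the COPII coat, and Golga3, a golgin of the Golgi stack, were higher in mutants. Golga1, a golgin of the trans-Golgi known as golgin-97, and Copg2, the less abundant gamma subunit of COPI, were lower. Of all 12012 genes, 7.12% were called higher and 7.89% lower, so the members' shares of 3.92% in each direction were below the background. With the added fold limit, 3.06% of all genes and no member were called. At an unadjusted p under 0.05 there were 11 members (21.6%), against 30.3% of all genes.

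Sec24d (chr3:123264801-123365641) had mean levels of 54 CPM in AB, 49.8 in control 1, 43.2 in control 2 and 36 in control 3. In mutants it had 68.9 CPM in Wdr34 and 62.4 in Wdr60, both above every control. The log2 fold change was 0.52 (SE 0.11, adjusted p = 0.00304), from 45.7 ± 7.85 CPM (SD, n = 4) to 65.6 ± 4.59 CPM (n = 2). The exact 2-sided permutation test gave p = 0.0667, the smallest that 2 against 4 clones allow, so that no member can pass 0.05 over clones in this state. Without the Wdr34 clone the call was lost (0.44, adjusted p = 0.0611), and without the libraries that stood apart it was kept (0.48). In ciliated cells Sec24d was at 30.2 CPM in D8, 57.8 in H12, 32.6 in A4 and 39.3 in G7, and at 49.1 in Wdr34 clone 1, 69.5 in Wdr34 clone 3 and 31 in Wdr60. The groups overlapped there, with the lowest mutant between the lowest controls, and the difference was 0.31 (adjusted p = 0.316); without Wdr34 clone 3 it was −0.01.

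Golga3 (chr5:110176857-110226470) was at 87.2 CPM in AB, 87.5 in control 1, 80.6 in control 2 and 90.6 in control 3, and at 95.7 in Wdr34 and 104.2 in Wdr60. Both mutants were above all controls (log2 fold change 0.21, SE 0.07, adjusted p = 0.0346; exact permutation p = 0.0667). Golga1 (chr2:39016155-39065551) was at 68.3 CPM in AB, 64.1 in control 1, 65.9 in control 2 and 72.5 in control 3, and at 58.4 in Wdr34 and 60.8 in Wdr60. Both mutants were below all controls (−0.19, SE 0.06, adjusted p = 0.03; exact permutation p = 0.0667). Separations of this kind were found in 6.98% of all genes upward and 5.88% downward, and among members in 2 genes in each direction, the other lower one being Bicd1. Golga3 kept its call only without AB among the clones, with adjusted p up to 0.249 (without the Wdr60 clone), and had an adjusted p of 0.0581 with the replicate block. Golga1 lost its call without Wdr34 (adjusted p = 0.188), Wdr60 (0.0651) or control 3 (0.0998). In ciliated cells the differences were 0.13 for Golga3 (adjusted p = 0.172) and −0.24 for Golga1 (adjusted p = 0.289).

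Copg2 (chr6:30747554-30896815) was at 77.2 CPM in AB, 105.8 in control 1, 122.5 in control 2 and 121 in control 3, and at 91.8 in Wdr34 and 81.7 in Wdr60. Control AB lay below both mutants, so the groups overlapped. The log2 fold change was −0.30 (SE 0.10, adjusted p = 0.044; exact permutation p = 0.4). The call was lost when any clone other than AB was left out, with adjusted p up to 0.319 without the Wdr60 clone, and with the replicate block (adjusted p = 0.0707). Of the exon length of Copg2, 23% (912 of 3961 bases) overlaps Mest, an imprinted gene on the opposite strand, and the strand setting of the counting is not given in the sources used here. Mest itself was at 9.6–18.3 CPM in the controls, 2.9 CPM in Wdr34 and 1.2 CPM in Wdr60 (−2.62, adjusted p = 1.56e-06). In ciliated mutants Mest was lower as well (−1.05, adjusted p = 0.0376), with overlapping clones, while Copg2 differed by −0.08 there (adjusted p = 0.743). Its part in the Copg2 value was not tested.

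Bicd1 was below all controls in both non-ciliated mutants without being called, at 25.5 CPM in Wdr34 and 23.3 in Wdr60 against 28.4 in AB, 32.7 in control 1, 25.6 in control 2 and 34 in control 3 (−0.31, SE 0.12, adjusted p = 0.0739; exact permutation p = 0.133). When control AB was left out, 4 members were called higher and 8 lower, with 14.8% and 16.3% of all genes. Without control 1, 4 members were called higher and 1 lower, with 8.29% and 9.04% of all genes. Without the libraries that stood apart, 3 were called higher (Sec24d, Golga3 and Copz1) and 7 lower, namely Bicd1 (−0.42), Cog4, Copg2 (−0.31), Gcc2, Golga1 (−0.25), Golgb1 and Trip11, while 13.6% of all genes were then called higher and 15.1% lower.

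**Figure D2:**
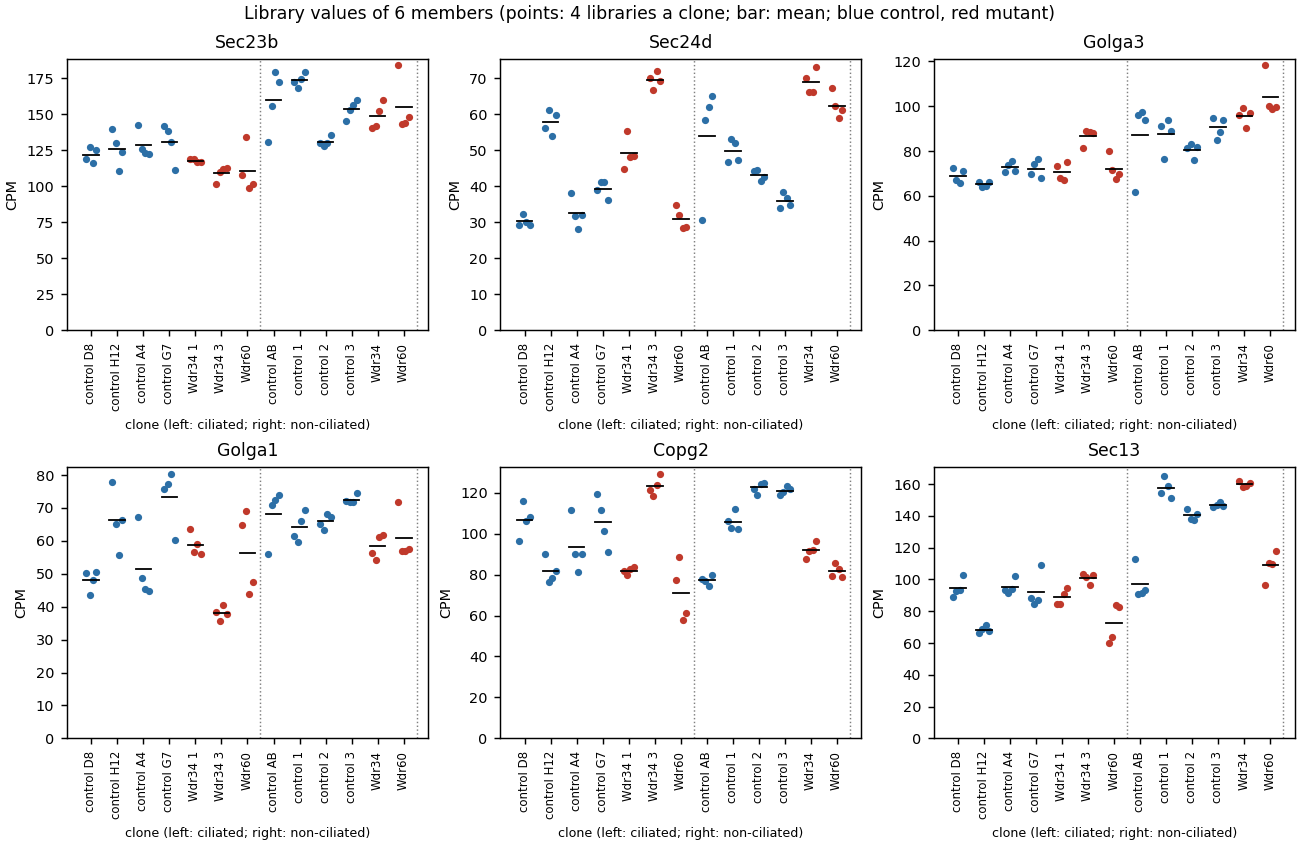
CPM of Sec23b, Sec24d, Golga3, Golga1, Copg2 and Sec13 in every library (points), by clone and state. Sec23b is lower in the 3 ciliated mutants (109–117.7 CPM) than in the 4 controls (121.9–130.7 CPM), Sec24d is highest in ciliated Wdr34 clone 3 and in the non-ciliated mutants, and among non-ciliated clones Copg2 and Sec13 are lowest in control AB.

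By role, no COG subunit, Arf GTPase, Bicaudal adaptor, SNARE, p115 or GRASP was called between mutants and controls in either state, and COPI and COPII had at most 1 call each per state. Among the 10 golgins, 7 were negative in each state, with 1 called in each direction in non-ciliated cells. Over all members the non-ciliated median was −0.0341 against 0.0022 for all genes, with 20 of 51 (39.2%) positive against 50.3%, and the median size of the change was 0.0892 against 0.164. The 95% interval lay within −0.5 and 0.5 for 47 members, all but Bicd1, Copz2, Sec24d and Trip11. No member was called in both states. The test of whether the mutant effect differed between states called no member, while 1.5% of all genes were called with a more positive and 0.391% with a more negative mutant effect in ciliated than in non-ciliated cells. At an unadjusted p under 0.05 that test had 3 members (5.88%), against 14.4% of all genes, and the smallest adjusted p was 0.062 for the GRASP Gorasp2 (−0.25), which was called under DESeq2 and under another scaling (RLE). Gorasp2 lies on chromosome 2, whose other genes had a median deviation of −0.30 in ciliated Wdr34 clone 3. In that clone Gorasp2 was at −0.32 against controls, and at 0.06 with the chromosome offset given below.

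**Figure D3:**
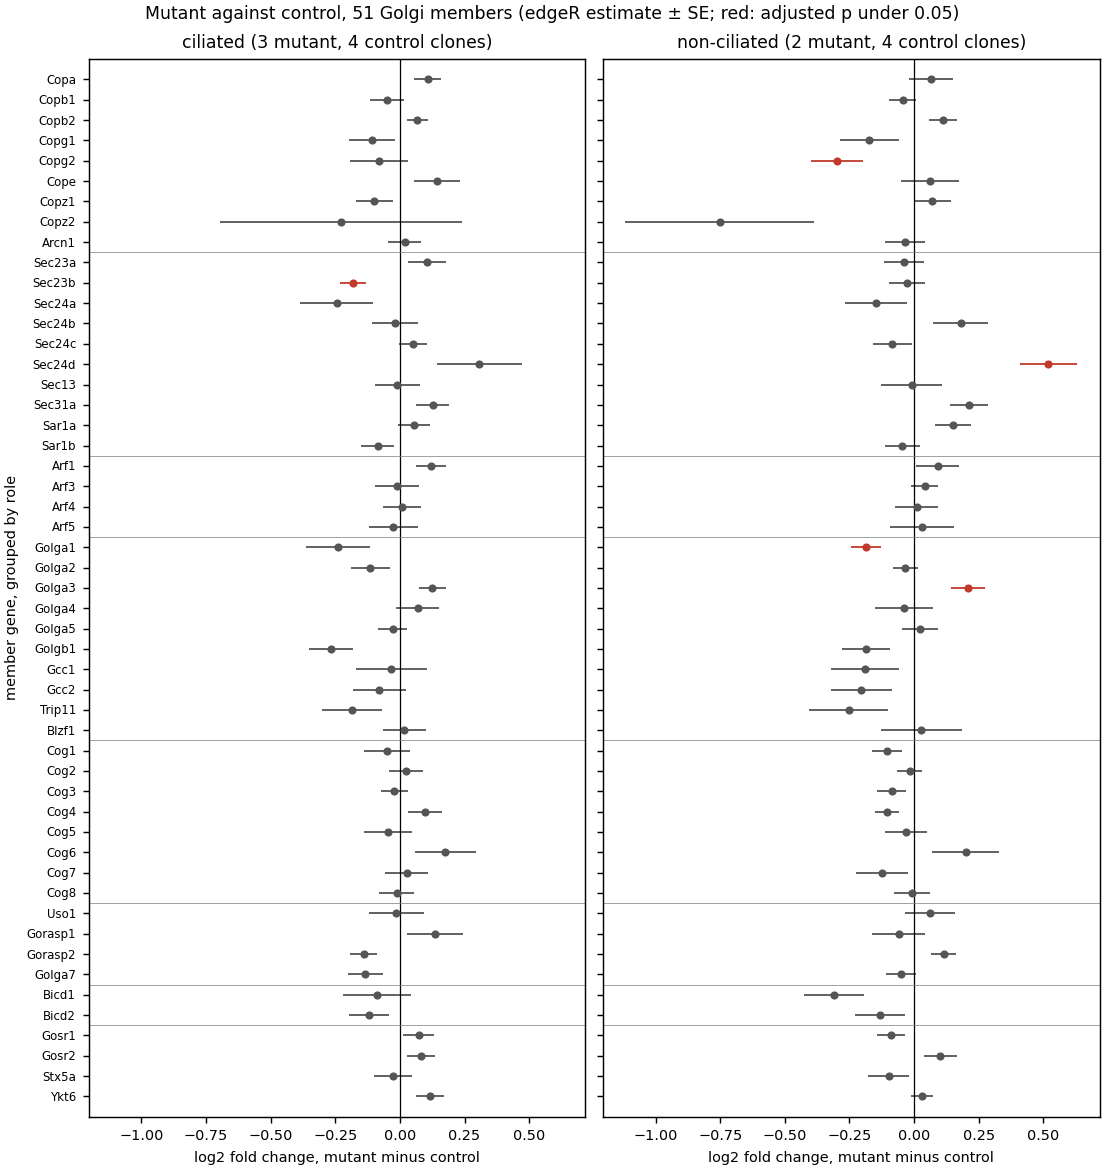
Log2 fold change of mutants over controls for each of the 51 members, grouped by role, in ciliated and in non-ciliated cells, with bars for the SE of the library-level fit and red points for an edgeR adjusted p under 0.05. Sec23b is the 1 red point in ciliated cells and Sec24d, Golga3, Golga1 and Copg2 are the 4 in non-ciliated cells, and Copz2 has the widest bars (SE 0.47 and 0.36).

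Copz2, the minor zeta subunit of COPI, varied more between clones than between genotypes. It was at 2.7 CPM in D8, 8.2 in H12, 1.4 in A4 and 22.6 in G7, and at 3.6 in Wdr34 clone 1, 13.3 in Wdr34 clone 3 and 5.8 in Wdr60. In non-ciliated cells it was at 3.6 CPM in AB, 2 in control 1, 7.8 in control 2 and 1.5 in control 3, against 2 in Wdr34 and 2.5 in Wdr60. Its highest values in each state were in G7 and control 2, the clones with low Krt8, Krt18, Cdh1 and Epcam and high Pax2, and mutants and controls overlapped (−0.23, SE 0.47 in ciliated and −0.75, SE 0.36, adjusted p = 0.164 in non-ciliated cells).

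Each mutant clone was also compared alone with the controls of its state. These 5 comparisons gave 18 member calls in all, 10 of them in ciliated Wdr34 clone 3. There, 4 members were higher (9.85% of all genes were called higher), and 6 were lower (10.9% of all genes). In ciliated Wdr60 no member was higher (2.91% of all genes) and 3 were lower (3.43%). In ciliated Wdr34 clone 1 none was called, with a background of 0.937% higher and 1.26% lower and 4 members at an unadjusted p under 0.05. The non-ciliated Wdr34 clone had 1 higher (5.89%) and 2 lower (5.6%), and the non-ciliated Wdr60 clone had 1 higher (5.98%) and 1 lower (6.01%). With 1 mutant clone in each, these tests compare that clone with the controls. Without the libraries that stood apart there were 27 calls in all, with 0 lower in ciliated Wdr60 (0.386% of all genes) and 8 lower in non-ciliated Wdr60 (12.6% of all genes). Without control AB there were 40, with 6 higher and 6 lower in non-ciliated Wdr34 (13% and 13.4% of all genes) and 5 higher and 10 lower in non-ciliated Wdr60 (14.1% and 15.3%).

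In several clones, members on the same chromosome deviated together, along with the other genes of that chromosome. On chromosome 6 lie Copg1, Copg2, Sec13, Arf5, Gcc1 and Bicd1, of which only the COPI gamma subunits Copg1 and Copg2 share a role. All 6 were below the mean of their state in ciliated control H12, ciliated Wdr60, non-ciliated control AB and non-ciliated Wdr60. Their median deviation was −0.24 (log2) in H12, −0.34 in ciliated Wdr60, −0.36 in AB and −0.29 in non-ciliated Wdr60, where the medians of the 556 to 562 other genes of the chromosome were −0.31, −0.33, −0.38 and −0.33. All 6 were above the mean in D8 (0.19, chromosome 0.15), control 1 (0.19, 0.19) and control 3 (0.27, 0.27). On chromosome 3, Sec24b, Sec24d and Cog6 were all above the mean in H12 (member median 0.40, chromosome 0.23), in ciliated Wdr34 clone 1 (0.28, 0.27), in non-ciliated Wdr34 (0.36, 0.31) and in AB (0.04, 0.24), and all below it in D8 (−0.27, −0.35) and non-ciliated control 3 (−0.40, −0.42). They did not follow their chromosome everywhere: all 3 were also below the mean in ciliated Wdr60 (−0.30, chromosome −0.06), G7 (−0.10, −0.04) and control 2 (−0.18, −0.07), and in ciliated Wdr34 clone 3 their median was 0.33 over a chromosome median of −0.02. Controls and mutants were both among the clones that stood apart. DNA copy number was not measured in these data, and the source of the chromosome-wide differences was not tested.

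**Figure D4:**
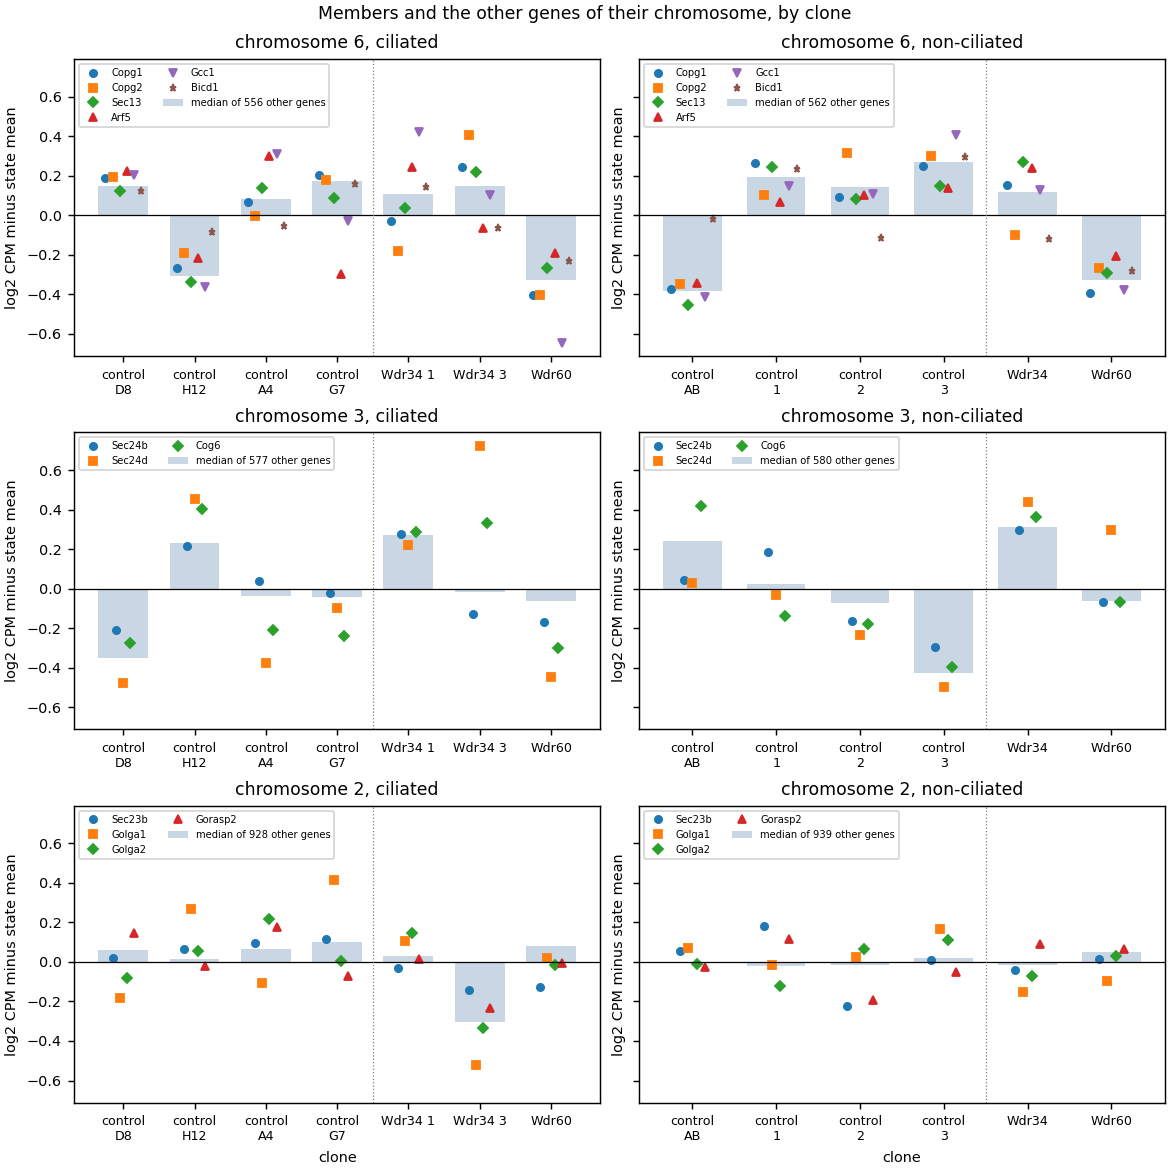
Deviation of log2 CPM from the state mean in each clone for the members on chromosomes 6, 3 and 2 (markers), over bars for the median of the other genes of that chromosome. The 6 chromosome 6 members lie below 0 with their bar in H12, AB and both Wdr60 clones, whereas the chromosome 3 members follow their bar in D8 and control 3 but not in ciliated Wdr60 (median −0.30 against −0.06) or ciliated Wdr34 clone 3 (0.33 against −0.02).

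Of the 18 calls in single clones, 12 were on a chromosome whose median lay at least 0.2 away from the state mean on the same side. All 6 lower calls of ciliated Wdr34 clone 3 lay on chromosomes 2 and 15, whose medians there were −0.30 (928 genes) and −0.29 (463 genes): Golga1 (−0.68), Golga2 (−0.41), Gorasp2 (−0.32), Sec23b (−0.24), Copz1 (−0.41) and Arf3 (−0.35). With the chromosome median of each library taken as an offset, an alternative chosen after seeing the data, their differences were −0.30, −0.04, 0.06, 0.14, −0.06 and 0.01, and none was called. The 3 lower calls of ciliated Wdr60, Gcc1 (−0.69), Copg1 (−0.47) and Copg2 (−0.45), all lay on chromosome 6 and were not called with the offset (−0.32, −0.10 and −0.09). In the non-ciliated Wdr60 clone Copg1 (−0.47, on chromosome 6) and Sec31a (0.30, on chromosome 5, median 0.24) had −0.07 and 0.02 with the offset.

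The calls kept with the offset were 4: the golgin Golgb1 (giantin; −0.39) and Cog4 (−0.21) in the non-ciliated Wdr34 clone, and Sec23a (0.26) and Sec24d (0.77, adjusted p = 0.00624) in ciliated Wdr34 clone 3. Sec24d in that clone was 0.77 with the offset as well (adjusted p = 8.036e-05), and its chromosome had a median of −0.02 there. In the non-ciliated Wdr34 clone Sec24d was at 0.60 without and 0.24 (adjusted p = 0.147) with the offset. Golga3 and Copg2, higher in ciliated Wdr34 clone 3 (0.29 and 0.33), were not called with it. The offset also gave 6 calls that were absent without it: Copg2 (−0.25), Sar1a (0.24) and Sec13 (0.21) in non-ciliated Wdr34, Sec24d (0.47, adjusted p = 0.00763) in non-ciliated Wdr60, Copg2 (−0.305) in ciliated Wdr34 clone 1 and Cog6 (0.35) in ciliated Wdr34 clone 3.

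The pooled comparisons depended on the offset as well. With it, no member was called in ciliated cells, and Sec23b was at −0.05 (adjusted p = 0.714). In non-ciliated cells Sec24d (0.36, adjusted p = 0.00604) and Golga1 (−0.21, adjusted p = 0.0102) kept their calls, Copb2 (0.14, adjusted p = 0.0484) and Sec13 (0.15, adjusted p = 0.0461) were called higher, and Golga3 (0.03, adjusted p = 0.802) and Copg2 (−0.11, adjusted p = 0.161) were not called. Subtracting the chromosome median lowered the median between-clone SD of the members from 0.169 to 0.142 in ciliated cells, where it became smaller for 37 of 51 members (72.5%), and from 0.173 to 0.134 in non-ciliated cells, for 31 (60.8%). In all genes the SD went from 0.293 to 0.267 and from 0.258 to 0.23, and it became smaller for 62.8% and 60.3%. In non-ciliated cells it fell from 0.303 to 0.055 for Copg1, from 0.325 to 0.071 for Gcc1 and from 0.301 to 0.102 for Sec13, all on chromosome 6. Across members and clones the deviation of a member correlated with the median of its chromosome with r = 0.409 (357 points) in ciliated and r = 0.562 (306 points) in non-ciliated cells, where members of 1 clone share libraries and a chromosome.

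Profiles of the 20 chromosome medians were alike between some clones of the 2 states. The correlation was 0.906 between D8 and control 3, 0.885 between G7 and control 2, 0.761 between H12 and AB, 0.831 between ciliated Wdr34 clone 1 and non-ciliated Wdr34, and 0.905 between the Wdr60 clones, against 0.489 between A4 and control 1 and at most 0.263 for ciliated Wdr34 clone 3. The labels do not link control clones between states. The paper describes 4 different control clones and 3 mutant clones, so clones may have been sequenced in both states. The comparisons between states below treat all clones as separate and use no pairing. Their p-values, the exact ones included, therefore assume independent clones.

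More members were called between states than between genotypes. In control clones, 39 of the 51 members were called between ciliated and non-ciliated cells, 14 higher and 25 lower in ciliated cells. The background was 31.2% of all 11856 genes higher and 29.7% lower, so the share of members higher (27.5%) was near it and the share lower (49%) was above it. Unadjusted p was under 0.05 for 40 members (78.4%) and 64.4% of all genes. The median log2 difference was −0.18 for members and 0.0209 for all genes, and 17 members (33.3%) were positive, against 51.7%. With the 4 libraries of each clone summed, 7 members were called (Arcn1, Bicd1, Copb2, Golga4, Gorasp2, Sec23a and Stx5a), with 6.11% of all genes higher and 7.33% lower.

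Most COPII coat genes were lower in ciliated controls. All 10 had negative differences, with a median of −0.30, and 7 were called lower: Sec13 (−0.62), Sec31a (−0.42), Sar1b (−0.33), Sec23a (−0.33), Sec24a (−0.31), Sec23b (−0.28) and Sec24c (−0.21). Of the COPI coat, 6 of 9 were lower, including Copb2 (−0.53), Arcn1 (−0.46) and Copg1 (−0.44), and Copz2 was higher. Both Bicaudal adaptors were lower, as were Uso1 (p115) and Gorasp2 (GRASP55, −0.51). The golgins were divided, with 5 higher and 2 lower, and so were the COG subunits, with 3 higher, among them Cog7 (0.55), and 4 lower, among them Cog6 (−0.53). Of the Arf GTPases, Arf3 (0.29) and Arf5 (0.25) were higher and Arf4 (−0.40), a target of the Golgi stress response, was lower. Of the SNAREs, Stx5a, Gosr1 and Gosr2 were higher and Ykt6 lower.

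Golga4 (golgin-245), a tether of the trans-Golgi, was at 113 CPM in D8, 152.1 in H12, 167.4 in A4 and 153.1 in G7, and at 88.5 in AB, 69.3 in control 1, 106.8 in control 2 and 82.3 in control 3. Every ciliated control lay above every non-ciliated one (0.76, SE 0.09, edgeR adjusted p = 6.918e-09; exact permutation p = 0.0286, the smallest that 4 against 4 clones allow). Stx5a (syntaxin 5), the SNARE of the early Golgi, was at 106.2, 112.7, 92.8 and 138.3 CPM in D8, H12, A4 and G7, and at 72.4, 63.9, 84.2 and 81.1 CPM in AB and controls 1, 2 and 3. It was likewise higher without overlap (0.58, SE 0.07, adjusted p = 3.04e-08; exact permutation p = 0.0286).

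Sec13, which is shared by the COPII cage and the nuclear pore, was at 94.4, 68.4, 95.3 and 92.3 CPM in D8, H12, A4 and G7, and at 97.2, 157.4, 140.4 and 146.8 CPM in AB and controls 1, 2 and 3. All ciliated controls lay below all non-ciliated ones, with H12 and AB, the clones with low chromosome 6 medians, lowest in their states (−0.62, SE 0.09, adjusted p = 3.049e-07; exact permutation p = 0.0286). Bicd1 was at 20.4, 18.1, 18.4 and 21.6 CPM against 28.4, 32.7, 25.6 and 34 CPM in the same order of clones. The groups were separate (−0.62, SE 0.11, adjusted p = 1.035e-05; exact permutation p = 0.0286). Uso1, the tether p115, was at 163.7, 103, 135.7 and 99.4 CPM against 196.2, 209.1, 149 and 222.4 CPM. D8 lay above control 2, so the groups overlapped (−0.63, SE 0.10, adjusted p = 3.621e-06; exact permutation p = 0.0571).

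Copz2 had the largest difference among the called members, at 1.23 (SE 0.44, edgeR adjusted p = 0.0173). Over clone means its difference was 0.76 (exact permutation p = 0.486). Its clones overlapped widely, and without G7 the difference was 0.14 (adjusted p = 0.757). Clone means were entirely above the non-ciliated controls in 5 members (10.6% of all genes were) and entirely below in 11 (12.5% of all genes were). The 5 were Golga4, Stx5a, Cog3, Gosr1 and Golga5, and the 11 were Sec13, Bicd1, Copb2, Gorasp2, Arcn1, Sec23a, Golga3, Cog4, Sec23b, Cog5 and Ykt6. Without G7 and control 2, 40 members were called, 11 higher and 29 lower, with 32.3% and 33.3% of all genes. With A4 left out, 9 were higher and 25 lower (29.6% and 28.7% of all genes), and without the libraries that stood apart 12 were higher and 26 lower (30.9% and 30.3%).

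The mutant clones gave a second set of cells in both states. All 39 members called in controls had the same sign between ciliated and non-ciliated mutant clones, as had 7044 of 7221 called genes overall (97.5%), with states that also differ in serum and time of sequencing in both sets. In the mutants the difference was 0.87 for Golga4, 0.66 for Stx5a, −0.61 for Sec13, −0.42 for Bicd1 and −0.70 for Uso1. Of 16 members with either motif, 4 were higher, 9 lower and 3 not called (median −0.20), and of 31 without, 8 were higher, 15 lower and 8 not called (median −0.17).

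**Figure D5:**
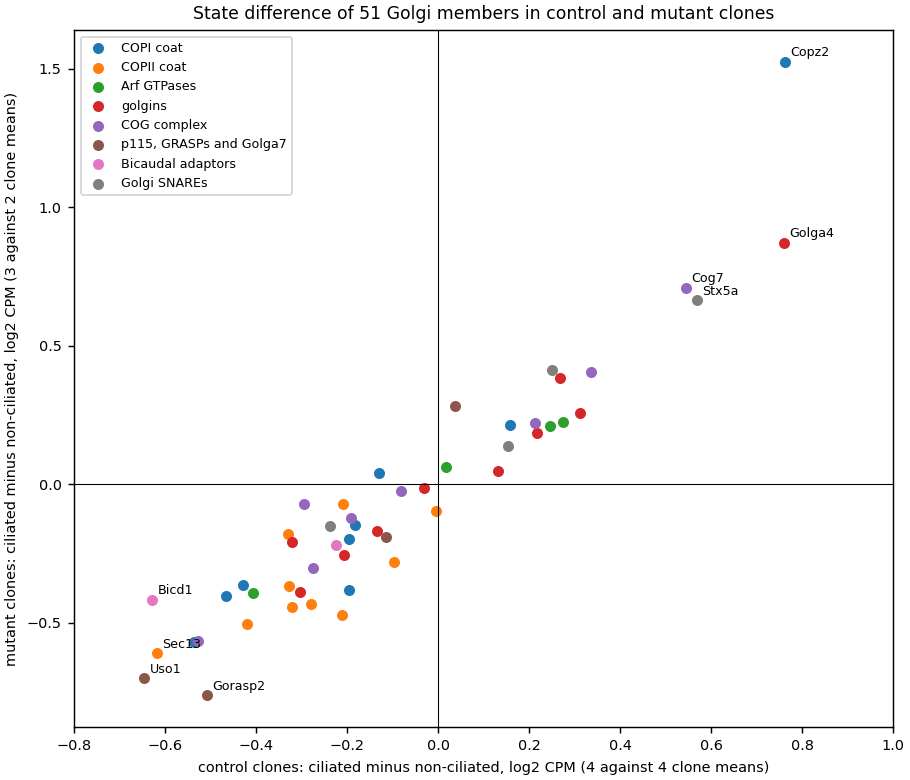
Log2 difference between ciliated and non-ciliated cells for each of the 51 members, in control clones (x axis) against mutant clones (y axis), coloured by role. Most members lie near the diagonal, with the COPII genes on the negative side in controls and Golga4 (0.76 and 0.87), Stx5a and Copz2 on the positive side. Copz2 lies off the diagonal (0.76 in controls and 1.52 in mutants).

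Other genes of the early secretory pathway were counted by 8 further lists. Of all genes, 1.58% were called higher and 1.59% lower in ciliated mutants, and 7.12% and 7.89% in non-ciliated mutants. In ciliated mutants none of 14 TRAPP tether subunits, 4 GARP and EARP subunits, 6 Arf exchange factors and Arf GAPs, 8 p24 cargo receptors or 7 tested trans-Golgi clathrin adaptors was called. Kdelr3, 1 of 9 cargo and retrieval receptors, was lower (−0.30), and so was Rab6b, 1 of 8 Golgi Rab GTPases (−1.76), while Creb3l2, a membrane-bound transcription factor that is cleaved in the Golgi, was higher (0.56). For Kdelr3 the clone means of mutants and controls overlapped (exact permutation p = 0.114), with Wdr34 clone 3 lowest at 41.4 CPM. In non-ciliated mutants TRAPP had 1 higher (Trappc5, 0.27) and 1 lower (Trappc11, −0.16), the p24 receptors 2 higher (Tmed2, 0.29 and Tmed9, 0.37), the retrieval receptors 1 higher (Kdelr2, 0.15), the clathrin adaptors 1 higher (Ap1s1, 0.37) and 1 lower (Gga3, −0.26), and the Rab GTPases 1 higher (Rab2a, 0.21) and 1 lower (Rab6b, −3.19). Creb3l2 was higher there too (0.54), and none of the 4 GARP and EARP subunits or 6 Arf regulators was called.

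Rab6b, a GTPase of Golgi membranes, was at 20.6 CPM in D8, 14.7 in H12, 11.8 in A4 and 27.3 in G7, and at 2.6 in Wdr34 clone 1, 12.2 in Wdr34 clone 3 and 1.7 in Wdr60 (adjusted p = 0.00518). Wdr34 clone 3 lay within the controls. In non-ciliated cells it was at 11.7 CPM in AB, 9.8 in control 1, 32.7 in control 2 and 16.6 in control 3, against 2.8 in Wdr34 and 1 in Wdr60 (adjusted p = 5.179e-06). No member of the core machinery changed by as much in the pooled comparisons; the largest value was −0.75, for Copz2, which was not called. The edited genes themselves carry missense changes, and transcripts of both were present in all clones, with Wdr34 at 21.7 CPM in ciliated Wdr34 clone 3, 30.9–49.5 CPM in the other ciliated clones and 22.2–32.3 CPM in non-ciliated clones, and Wdr60 at 20.4–30.8 CPM.

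Between states, in controls, 31.2% of all genes were called higher and 29.7% lower, the background for the counts that follow. The retrieval receptors resembled COPII in direction, with 0 higher and 5 of 9 lower. Among the lower ones were Surf4 (−0.53) and Mia3 (−0.40), which serve cargo export in COPII carriers. The Arf regulators went the other way, with 5 of 6 higher and Gbf1, the Arf1 exchange factor that acts in COPI recruitment, lower (−0.43). TRAPP had 6 higher and 3 lower of 14, and the Golgi Rabs, the p24 receptors and the clathrin adaptors had 2 higher and 2 lower each. GARP and EARP had 1 of each, and the 5 tested genes of the Golgi stress response 2 higher and 3 lower. Hspa5, the abundant chaperone of the endoplasmic reticulum, was lower in ciliated controls (−1.03, adjusted p = 1.042e-11).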

How the data were processed

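RNA-seq of 52 mouse IMCD3 libraries (13 clones as labelled within each state, 4 technical replicate libraries each) was analysed. The authors aligned paired-end reads with Rsubread to GRCm38/mm10 and deposited raw read counts per gene symbol from featureCounts, without normalization. Per the submitters' processing notes R 3.4.4 and DESeq2 1.18.1 were used. The strand setting and the handling of multimapping reads are not given in the sources used here, so counts of overlapping genes and close paralogs are uncertain. Depth was 14816218 to 28084979 counts per library.

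Groups, clones and replicates came from the labels. The fits used edgeR 4.0.16 under R 4.3.3 (filterByExpr, TMM, glmQLFit and glmQLFTest, 2-sided; libraries as samples), with limma 3.58.1 and DESeq2 1.42.0 for alternatives. Adjusted p is Benjamini-Hochberg over all genes tested, called under 0.05. SE is the size of the log2 fold change divided by the square root of F. CPM are TMM-scaled, and log2 CPM use a prior count of 2. Libraries of a clone are technical but were counted as independent samples, so the p-values and SE rest on more units than there are clones. Means of clones went into exact 2-sided permutation tests, unadjusted and unpaired (35, 15 and 70 splits for 3 against 4, 2 against 4 and 4 against 4 clones). On simulated data edgeR recovered 50% of changes of 0.5 and 78% of changes of 1 (log2) in the ciliated comparison. It recovered 53% and 84% in the non-ciliated one, with 4 false calls in each. The simulated libraries were drawn independently, without differences between clones, so these rates do not describe libraries that share a clone.

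Same-numbered libraries did not deviate together (median r 0.0146, 144 pairs, −0.327 to 0.55), so numbers do not pair samples. Replicates differed beyond counting noise (chi-square per degree of freedom 1.89–88.2, 78 pairs). Members and lists were chosen with earlier results of these data known. Named in full were members called in both states or separated between mutant and control clones, those called past the fold limit, the 6 largest state calls, and paralogs by level; members called without separation (Copg2), and single-clone calls, were added after their values were seen. Alternatives were DESeq2, RLE scaling, 2 other count filters, summed clones, voomLmFit blocked on clone, the replicate block, other thresholds, and each clone or replicate number left out. The chromosome offset, the loss of G7 and control 2 together and the removal of libraries that stood apart were added after seeing the data. Promoter and gene coordinates are RefSeq GRCm38.p6.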

Additional observations from a re-analysis of the deposited data

Results flagged for a closer look

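In the 102 groups of 4 control clones (51 members, 2 states), 7 had 1 clone whose gap to its nearest neighbour, as a share of the whole range, passed Dixon's 95% critical value; chance gives about 5% of groups. In ciliated controls, Sec13 was lowest in H12 at 68.4 CPM against 92.3–95.3 CPM in the others (share 0.89). Cog6 was highest in H12 at 46.2 CPM against 28.9–30.3 CPM (0.901), and Golga5 was highest in A4 at 63.9 CPM against 51–52.7 CPM (0.869).

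In non-ciliated controls, 3 members were lowest in control 2. Copa was at 349 CPM against 484–500 CPM (0.905), Blzf1 at 20.8 CPM against 40.5–42.4 CPM (0.932), and Cog8 at 40 CPM against 48.5–49.8 CPM (0.856). Arf5 was lowest in control AB at 93.9 CPM against 119–125 CPM (0.852). For 5 of these 7, all but Golga5 and Cog8, the clone's other genes on the same chromosome were shifted the same way: chromosome 6 in H12 (median −0.31) and AB (−0.38), chromosome 3 in H12 (0.23) and chromosome 1 in control 2 (−0.50).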

How the results depend on the processing

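The counts of called members were small and moved with most settings. In ciliated cells the 1 lower call became 0 with the chromosome offset, clones summed, the replicate block, at least 10 counts in every library, voomLmFit with the clone block, an adjusted p under 0.01 or the fold limit, and with any 1 replicate number left out (0). Leaving out 1 clone gave 0 to 3 lower and 0 to 3 higher (3 and 3 without H12; 2 and 2 without G7), where without Wdr34 clone 3 the 1 lower call was Copg2 in place of Sec23b. In non-ciliated cells the 2 higher calls became 0 with clones summed, voomLmFit or the fold limit, and 1 with the replicate block, at least 1 count in any library, an adjusted p under 0.01 or any replicate number left out, and ran from 1 to 4 without 1 clone. The 2 lower calls became 0 with clones summed, voomLmFit, an adjusted p under 0.01 or the fold limit, 1 with the chromosome offset, the replicate block or at least 1 count in any library, and 7 without the libraries that stood apart; they ran from 0 to 6 without a replicate number (6 without number 1) and from 1 to 8 without a clone (8 without AB). Clones summed called 0% of all genes in both states, and voomLmFit at most 0.0749% in a direction, so neither says anything about the members.

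The interaction count of 0 became 1 under DESeq2 and under RLE and ran from 0 to 4 without 1 clone (4 without G7). The 18 single-clone calls became 28 under DESeq2 and 10 with the chromosome offset, and ran from 15 to 40 without a clone (40 without AB). The 39 state calls were 32 to 40 under the other settings and 7 with clones summed. In ciliated Wdr34 clone 3, Sec23b, Gorasp2 and Arf3, called lower, had positive values with the offset (0.14, 0.06 and 0.01) and were not called. Pooled differences that changed sign, none of them called as reported or with the changed sign, were Sec24d in ciliated cells without Wdr34 clone 3 (−0.0123; 0.55 and called without Wdr60), Golga3 in ciliated cells with the offset (−0.0141), Copg2 in ciliated cells without Wdr60 (0.0674; −0.35 and called without Wdr34 clone 3), and Sec23b in non-ciliated cells without replicate 3 (0.0019), without Wdr34 (7e-04) and without control 1 (0.0298; −0.1013 without control 2). Replicate numbers did not pair the libraries; the block took away the calls of Sec23b, Golga3 and Copg2 (adjusted p 0.0550, 0.0581 and 0.0707) and left 38 state calls. The causes were not tested. At 14816218 counts or more per library, depth did not keep any member below the filter.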
